A study of Mus musculus with 4 samples.

Results

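The Cyp2a and Cyp2b genes lie side by side on mouse chromosome 7, and their DNA copy number was examined in 4 liver tumours (tumours 1 to 4) by array comparative genomic hybridization. The members are 36 of the 169093 probes placed on chromosomes 1 to 19, X and Y. They were taken as the 11 chromosome 7 probes whose gene name starts with Cyp2a or Cyp2b, the 16 named J03549, and the 9 without a gene name between 26500000 and 27500000 (mouse build mm9). Of these, 11 probes lie in the stretch chr7:26789486-26973242, which was chosen by the measured log2 ratios themselves, since 1 tumour read very low and 1 high there. The values of the stretch are therefore given as a description, with no test.

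The tumours came from 4 untreated mice that the labels give as male and Trp53-/-, and the series title places them in C57BL/6J animals in which the loss of Trp53 was restricted to the liver. Trp53 encodes the p53 tumour suppressor, and the labels do not name the promoter that drives the deletion. The reference on each array was spleen DNA with the same genotype and sex in the labels, pooled from 3 littermates per the series design. The labelling protocol names liver in place of spleen for the reference. Cy5 marked the tumour DNA and Cy3 the reference DNA throughout, with no dye swap. Every ratio below is log2 of tumour over reference, centred on the autosomal median of its array. A reference of other mice means that a change in a tumour and a difference between mice cannot be told apart. A genomic DNA array holds no transcript, so the labelled tissue could not be checked against cell type markers.

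Cytochromes P450 of the Cyp2a and Cyp2b families are haem enzymes of the endoplasmic reticulum that oxidise drugs, other foreign compounds and steroids, mainly in the liver. Cyp2b10 is the mouse gene that phenobarbital induces through the nuclear receptor Nr1i3, also called CAR. Cyp2b9 and Cyp2b13 are close relatives of it, with higher expression in female than in male mouse liver. The genes arose by repeated local duplication, and pseudogenes lie among them. A RefSeq gene table of GRCm38, used here for names and order only, lists 13 Cyp2a and Cyp2b genes on chromosome 7, of which 4 are pseudogenes. In that order Cyp2b10 is followed by Cyp2b28-ps, Cyp2b27-ps, Cyp2b13, Cyp2b26-ps, Cyp2b9, Cyp2a4, Cyp2b23 and Cyp2b19. The array gives probes under 7 of the 13 names, 5 of them Cyp2b and 2 Cyp2a. The files do not say what J03549 is, and the RefSeq table did not match it, so it is named only. Whether a probe lies in an exon or an intron was not determined, since no mm9 annotation was used here.

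The probe sequences show which bases the array held. The 11 probes of the stretch are 50 to 60 bases long, and none shares 20 consecutive bases, on either strand, with another probe of the array. Matches across the genome, such as in the pseudogenes and genes of the family without a probe name on the array, were not determined. The 2 Cyp2b13 probes and the 3 Cyp2b9 probes are given because the edge of the stretch falls between the second and the third Cyp2b9 probe, and 2 J03549 probes are given as those with the lowest and the least low ratio in tumour 1. Bases are those of the deposited files, written in lower case, with runs of 10 or more of one base in capitals. The files do not state their strand.
J03549, lowest in tumour 1, chr7:26797991-26798043: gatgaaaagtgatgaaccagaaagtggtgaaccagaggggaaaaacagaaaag
J03549, least low in tumour 1, chr7:26828207-26828256: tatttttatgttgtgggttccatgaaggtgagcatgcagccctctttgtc
Cyp2b13, within the stretch, chr7:26874031-26874090: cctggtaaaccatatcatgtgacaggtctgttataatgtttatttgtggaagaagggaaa
Cyp2b13, within the stretch, chr7:26880533-26880592: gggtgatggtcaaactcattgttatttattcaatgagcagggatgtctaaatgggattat
Cyp2b9, within the stretch, chr7:26958886-26958945: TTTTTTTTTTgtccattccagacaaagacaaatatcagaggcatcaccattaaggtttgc
Cyp2b9, within the stretch, chr7:26973183-26973242: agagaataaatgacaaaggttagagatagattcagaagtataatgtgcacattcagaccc
Cyp2b9, outside the stretch, chr7:26987202-26987261: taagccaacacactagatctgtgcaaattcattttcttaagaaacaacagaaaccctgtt

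The arrays differed in quality and in their X and Y levels. The derivative log ratio spread, a measure of noise between neighbouring probes, was 0.12 to 0.16 on the arrays of tumours 1, 3 and 4, against 0.36 for tumour 2, which the file header placed out of range. No spot of a member was flagged or saturated on any array. In the stretch every probe was well above background in all 8 channels. Flags were rare among all placed probes, at 81 to 258 per array, and 98.99% to 99.99% of each channel lay above background. The lack of flags and of dim probes is thus not particular to the members. Relative to the autosomal median of its own channel, the tumour channel on chromosome Y averaged -3.11 on array 4, against -1.15 to -0.81 on arrays 1 to 3. The reference channel on chromosome Y averaged -3.38 on array 1, against -0.77 to -0.74 on arrays 2 to 4. On chromosome X the tumour channel of array 4 averaged -0.08 and the reference channel of array 1 averaged -0.072, while the other 6 channels lay between -0.99 and -0.89. These 2 channels thus went against the male sex that the labels give, and both also stood apart in the stretch, as described below.

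Over the stretch, tumour 1 read far below its reference and tumour 4 well above it, while tumours 2 and 3 lay near 0. The 11 probes averaged -2.44 ± 1.03 in tumour 1, 0.14 ± 0.46 in tumour 2, 0.043 ± 0.14 in tumour 3 and 0.84 ± 0.23 in tumour 4 (SD over probes, n = 11). These means are ratios of 0.185, 1.1, 1.03 and 1.79. Probes of 1 array share their DNA and are not replicates, so this SD shows how the probes differ and not how tumours vary. All 11 values of tumour 1 lay below all values of the other tumours. All 11 values of tumour 4 lay above all values of tumour 3, and they overlapped with those of tumour 2, the noisier array. Over the 4 tumours the stretch averaged -0.35 ± 1.43 (SD, n = 4), and without tumour 1 the average was 0.34, so this mean describes no typical tumour.

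The low and high values ended at the edges of the stretch. The 53 flanking probes between 26500000 and 27500000 averaged -0.052, 0.039, 0.019 and 0.034 in tumours 1 to 4. The stretch mean minus the flank mean was -2.38, 0.098, 0.024 and 0.80. On the low side, the first probe inside, J03549 at chr7:26789486-26789544, read -2.22, 0.87, -0.11 and 0.87, and the last probe outside, J03549 at chr7:26743426-26743483, read 0.14, 0.20, 0.31 and 0.065. On the high side the last probe inside, Cyp2b9 at chr7:26973183-26973242, read -3.52, 0.32, 0.15 and 1.29. The first probe outside, Cyp2b9 at chr7:26987202-26987261, read -0.0004, -0.21, -0.23 and 0.15. The gaps without a probe at these edges were 46002 bp and 13959 bp, so the edges are known only to that precision, and the stretch itself spans 183757 bp. Neither the low values of tumour 1 nor the high values of tumour 4 carried on to the next probe outside. The stretch was chosen as the place where both occur, so the shared edges are no separate result.

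The share of probes with such values differed between the arrays, and on that of tumour 2 readings of 0.5 or higher were common. In tumour 1, 10 of the 11 stretch probes read -1 or lower, against 0.039% of all autosomal probes, and 0 read 0.5 or higher, against 0.186%. In tumour 4, 11 of 11 read 0.5 or higher, against 0.44% of the autosomal probes, and 0 read -1 or lower, against 0.0635%. In tumour 2, 3 of 11 read 0.5 or higher, against 8.8%, and 0 read -1 or lower, against 1.11%. In tumour 3 none passed either value, against 0.123% at 0.5 or higher and 0.0189% at -1 or lower. The autosomes were also divided into 14452 adjoining runs of 11 consecutive probes, placed so that the stretch is 1 of them. It had the lowest mean of these runs in tumour 1, where the next lowest run averaged -0.86, and the third highest mean in tumour 4. A mean of -1 or lower was found for 1 run in tumour 1, the stretch itself, which is 0.00692% of the runs. In tumours 2, 3 and 4 it was found for 0%. Means of 0.5 or higher were found for 0.00692%, 0.374%, 0.0208% and 0.0692% of the runs in tumours 1 to 4. These shares are given as background, since the stretch was picked for its values. All of them include the stretch, and its 10 probes are among the 62 autosomal probes behind the 0.039% in tumour 1.

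Cyp2b13 was covered by 2 probes, both within the stretch. Its probe at chr7:26874031-26874090 read a ratio of -3.83, -0.15, -0.068 and 0.99 in tumours 1 to 4. Its level, relative to the autosomal median of the same channel, was -3.15, -1.72, -0.11 and -0.26 in the tumour channel of arrays 1 to 4, against 0.68, -1.58, -0.054 and -1.26 in the reference channel. Both channels of array 2 were low together, which cancels in the ratio, and on array 1 the channels lay far apart. At chr7:26880533-26880592 the other probe read -1.41, 0.57, 0.16 and 0.78. Its tumour channel lay at -0.99, 0.21, -0.044 and 0.57, and its reference channel at 0.41, -0.38, -0.22 and -0.22. The ratio in tumour 1 was thus less low at the second probe of the same gene, 0.375 on the linear scale against 0.0702.

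Cyp2b9 had 3 probes, which the edge of the stretch divides. The probe at chr7:26958886-26958945 read -2.18, -0.013, 0.049 and 0.76 in tumours 1 to 4, with a tumour channel at -1.78, -0.25, -0.093 and 0.50 and a reference channel at 0.40, -0.26, -0.16 and -0.26. The next one, at chr7:26973183-26973242, with the ratios given above, had the highest value of the stretch in tumour 4, 2.44 on the linear scale. Its tumour channel lay at -2.62, 0.0026, 0.21 and 1.01 and its reference channel at 0.89, -0.34, 0.045 and -0.29. At the third probe, outside the stretch, the tumour channel lay at -0.17, -1.01, -0.37 and -1.03 and the reference channel at -0.18, -0.82, -0.15 and -1.18, so the channels of each array lay close together. As a gene mean over all 3 probes Cyp2b9 read -1.90, 0.033, -0.011 and 0.73, and Cyp2b13 over its 2 read -2.62, 0.21, 0.047 and 0.88. Gene means of -1 or lower were found for 0.0224%, 0.0598%, 0.0299% and 0% of the autosomal genes with at least 2 probes in tumours 1 to 4, and gene means of 0.5 or higher for 0.0299%, 3.35%, 0.0598% and 0.105%. These shares include the members: the 3 genes at -1 or lower in tumour 1 were Cyp2b13, Cyp2b9 and BC030357. The 14 genes at 0.5 or higher in tumour 4 also held Cyp2b13 and Cyp2b9.

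The other 7 probes of the stretch carry the name J03549. They averaged -2.26 ± 1.01 in tumour 1, 0.11 ± 0.54 in tumour 2, 0.026 ± 0.15 in tumour 3 and 0.77 ± 0.21 in tumour 4 (SD over probes, n = 7). The 9 probes of the same name outside the stretch averaged -0.0066, 0.21, 0.028 and 0.071 in tumours 1 to 4. One array name thus covered probes of very unlike ratio in tumours 1 and 4.

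Between 26789486 and 26838488, 5 J03549 probes follow each other. The one at chr7:26789486-26789544 had a tumour channel at -1.41, 0.68, 0.011 and 1.02 on arrays 1 to 4 and a reference channel at 0.81, -0.21, 0.11 and 0.15. The probe at chr7:26797991-26798043 read the lowest ratio of the stretch, at -3.85, 0.029, 0.0006 and 1.13 in tumours 1 to 4, which in tumour 1 is 0.0693 on the linear scale. Its tumour channel lay at -2.88, 0.21, -0.019 and 0.96 and its reference channel at 0.96, 0.17, -0.034 and -0.17. At this probe the reference channel of array 1 and the tumour channel of array 4 were equally high. Next to it, the probe at chr7:26809469-26809526 read -2.14, 0.32, 0.18 and 0.79, with a tumour channel at -0.43, 0.89, 0.73 and 1.52 and a reference channel at 1.70, 0.56, 0.53 and 0.72. The probe at chr7:26828207-26828256 read -0.83, 0.54, 0.0089 and 0.53, and its tumour channel lay at 1.37, 2.44, 1.86 and 2.43 against 2.19, 1.89, 1.84 and 1.90 in the reference channel. It had the least low ratio in tumour 1 and the least high in tumour 4. Last of these, the probe at chr7:26838429-26838488 read -2.83, 0.039, 0.12 and 0.87, with a tumour channel at -1.97, 0.20, -0.065 and 0.91 and a reference channel at 0.85, 0.15, -0.20 and 0.042.

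The other 2 J03549 probes lie between Cyp2b13 and Cyp2b9, and each holds a run of at least 10 T. The probe at chr7:26892214-26892273 read -1.27, -0.20, 0.20 and 0.65 in tumours 1 to 4. Its tumour channel lay at -1.69, -1.12, -1.12 and -0.77 and its reference channel at -0.43, -0.93, -1.34 and -1.43. Its neighbour at chr7:26913981-26914040 read -2.71, -0.82, -0.22 and 0.58, with a tumour channel at -2.93, -1.81, -0.82 and -0.31 and a reference channel at -0.23, -1.01, -0.62 and -0.90. Its ratios were the lowest of the stretch in tumours 2 and 3.

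The single channels show the level on each side of the ratios, and a level can also shift in both channels of an array together. To compare a probe only with itself, each channel level was set against the median of the same channel, and so the same dye, on the other 3 arrays. In the stretch the tumour channel of array 1 differed by -1.91 ± 0.82 and that of array 4 by 0.91 ± 0.35, while those of arrays 2 and 3 differed by -0.059 ± 0.64 and 0.074 ± 0.68 (SD over probes, n = 11). The reference channel of array 1 differed by 0.90 ± 0.43, while those of arrays 2, 3 and 4 differed by -0.22 ± 0.50, 0.061 ± 0.44 and -0.24 ± 0.38. On the linear scale the tumour channel was 0.266 times the median of the others on array 1 and 1.88 times on array 4, and the reference channel was 1.87 times on array 1. As means over the stretch, the low ratio of tumour 1 thus held both a low tumour channel and a high reference channel. The largest difference of the reference channel of array 1, 1.94, was at chr7:26874031-26874090, where the reference channels of arrays 2 and 4 were low. At that probe the tumour channel of array 3 also differed, by 1.61.

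The same channels were extreme at nearly every probe. The tumour channel of array 1 was the lowest of the 4 tumour channels at 11 of 11 probes. The reference channel of array 1 was the highest of the 4 reference channels at 11 of 11, and the tumour channel of array 4 was the highest of the 4 tumour channels at 9 of 11. Such counts were not made over all autosomal probes. The stretch was chosen by its ratios, so they are a description only. Across the 53 flanking probes the channel differences described above averaged between -0.051 and 0.053 for the tumour channels. For the reference channels they averaged between -0.10 and 0.074. Their SDs over probes were 0.29 to 0.55 and 0.26 to 0.45. At chr7:27453616-27453675 the tumour and reference channels differed by -3.13 and -2.78 on array 2, and by 1.42 and 1.59 on array 1. The ratio there was near 0 on both arrays, at -0.071 and -0.047. The 2 channels with a high level in the stretch, the tumour channel of array 4 and the reference channel of array 1, are the 2 whose X and Y levels went against the labelled sex. The labels do not say whether the 4 reference channels held the same pool, and they do not settle whether samples or pools were exchanged between channels or arrays. The ratios of tumours 1 and 4 are therefore those of the channels as labelled. Whether the mice differ in the copy number of the stretch was not tested.

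Within the stretch, probes that read lower in tumour 1 tended to read higher in tumour 4. Over the 11 probes of the stretch the ratios of the 2 tumours had a Pearson correlation of -0.79 and a Spearman correlation of -0.81. Both are given as a description, since the stretch was chosen by these ratios and its probes are not replicates. The points share the probe sequences. Over the 53 flanking probes the Pearson correlation was 0.30. Ratios there lay near 0 in both tumours, so the 2 correlations cannot be set against each other. The 50-base probe at chr7:26828207-26828256 lay nearest to 0 in both tumours, and in tumour 4 the highest 2 readings were at chr7:26797991-26798043 and chr7:26973183-26973242.

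The other Cyp2b genes lay near 0 in all 4 tumours. Cyp2b10 (chr7:26697664-26697723, 1 probe), on the low side of the stretch, read 0.02, 0.0029, 0.082 and -0.083 in tumours 1 to 4, a mean of 0.0054 ± 0.068 (SD, n = 4). Cyp2b23, on the high side, read -0.026, -0.092, 0.014 and -0.007 over 2 probes, a mean of -0.028 ± 0.046 (SD, n = 4). Its probe at chr7:27453616-27453675 was dim in both channels of array 2, at -3.15 in the tumour channel and -3.10 in the reference channel, and its ratio there was -0.071. Both channels of array 4 were also low at this probe, at -1.45 and -1.57, with a ratio of 0.12. On arrays 1 and 3 its levels lay between -0.32 and 0.012. Cyp2b19, an enzyme of skin keratinocytes (chr7:27556111-27556170, 1 probe), read -0.0032, 0.17, 0.20 and 0.15, a mean of 0.13 ± 0.09 (SD, n = 4). In tumour 1 these 3 genes lay between -0.026 and 0.02.

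The Cyp2a genes were covered by 1 probe each, and they varied most in tumour 2. Cyp2a5, the coumarin hydroxylase of mouse liver (chr7:27620744-27620803), read -0.0065, 1.13, 0.15 and 0.38 in tumours 1 to 4, a mean of 0.41 ± 0.51 (SD, n = 4). In the other tumours, on less noisy arrays, its values ran no higher than 0.38. Cyp2a22 (chr7:27719979-27720038) read 0.07, -0.56, 0.31 and 0.10, a mean of -0.019 ± 0.38 (SD, n = 4). In tumour 1, then, both Cyp2a genes lay within 0.1 of 0. The 7 probes named Cyp2a or Cyp2b outside the stretch averaged 0.0038, 0.05, 0.077 and 0.098 in tumours 1 to 4. The 9 unnamed probes averaged -0.13, 0.17, 0.037 and 0.11. Of the 25 members outside the stretch, 0 read -1 or lower in any tumour, and readings of 0.5 or higher were found at 5 in tumour 2, where 8.8% of all autosomal probes reached that value, and at 0 in tumours 1, 3 and 4, where 0.186%, 0.123% and 0.44% did. Readings of -1 or lower made up 0.039%, 1.11%, 0.0189% and 0.0635% of the autosomal probes in tumours 1 to 4. Over the 4 tumours these 25 averaged 0.061 ± 0.084 (SD, n = 4).

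The other Cyp2 genes of the region lay near 0 in tumours 1, 3 and 4. Cyp2s1, at the low end, read -0.11, 0.21, 0.077 and 0.11 in tumours 1 to 4 over 4 probes. Cyp2g1, an olfactory mucosa enzyme between Cyp2b19 and Cyp2a5, read -0.12, -0.39, -0.065 and -0.27 over 2 probes. Cyp2f2, an enzyme of lung club cells, read 0.051, -0.045, -0.13 and -0.13 over 2 probes. Cyp2t4 had 1 probe, with 0.043, 0.61, 0.10 and -0.091. Of these 4 genes none read -1 or lower in any tumour, and the reading of Cyp2t4 in tumour 2 was the single one of 0.5 or higher. For a single probe such as that of Cyp2t4, the share of all autosomal probes at 0.5 or higher in tumour 2 was 8.8%. Among all genes with at least 2 probes, 3.35% reached 0.5 in tumour 2, and between 0% and 0.0598% read -1 or lower in a tumour. No low reading among 4 genes is therefore no result about them. The 12 named genes of the window outside the Cyp2a and Cyp2b families, among them Axl, Ccdc97, Hnrpul1, Nlrp9c, Nlrp4a and Nlrp9a, had gene means between -0.18 and 0.12 in tumour 1 and between -0.24 and 0.21 in tumour 4.

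Regulators of the family were examined from a list of 6 genes. The list held the receptors Nr1i3 and Nr1i2, their partner Rxra, the liver transcription factors Hnf4a and Cebpa, and Por, the reductase that passes electrons to the P450 enzymes. Nr1i3 had no probe under that name. The other 5 had means between -0.11 and 0.15 in tumour 1, with a median of 0.013, against 0.0043 over all genes with at least 2 probes. In tumour 4 they lay between -0.20 and 0.22, with a median of -0.099, against -0.019 over all genes. None read -1 or lower in any tumour, against between 0% and 0.0598% of all genes with at least 2 probes, so this is no result about them. Cebpa, with 1 probe, is not among those genes. In tumour 2, 1 of the 5 read 0.5 or higher, where 3.35% of all genes with at least 2 probes did. That gene was Rxra, at 0.14, 0.75, 0.13 and 0.22 in tumours 1 to 4.

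The genes elsewhere on the autosomes with the pattern most like that of the stretch were sought over 13389 genes with at least 2 probes, by the root mean square difference of the 4 tumour values. The nearest were Entpd4 on chromosome 14 with a difference of 0.88, BC030357 on chromosome 7 with 0.90, Loxl2 on chromosome 14 with 0.96, Yars on chromosome 4 with 0.97 and AK136073 on chromosome 3 with 0.99. Entpd4 read -0.70, 0.23, 0.011 and 0.59 in tumours 1 to 4, and BC030357 read -1.25, -0.037, -1.17 and 1.40. All 5 were low in tumour 1 and high in tumour 4, which a search by likeness to the stretch selects for. The lowest of them in tumour 1, BC030357, lay above the -2.44 of the stretch. In tumour 4, BC030357 at 1.40 and Yars at 0.96 lay above the 0.84 of the stretch, and the others lay below it. Yars and BC030357 were also low in tumour 3, at -1.09 and -1.17, where the stretch lay near 0.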

How the data were processed

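Genomic DNA of 4 liver tumours was hybridised with reference DNA on 4 two-colour Agilent arrays, and the tumours form 1 group. Agilent Feature Extraction 12.0.1.1 (12.0.0 per the submitters' processing notes) made the deposited processed intensity by background subtraction, detrending and 1 linear dye factor per channel, per the file headers. Probe positions are those of mm9. The deposited mean and background intensities are raw. The deposited log10 ratio is that of processed red over green.

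Log2 ratios were computed per spot, flagged spots were left out, the spots of a probe gave 1 mean, and the autosomal median of the array was then subtracted. Single-channel levels were centred in the same way within a channel. No p-value is given: the labels hold 1 group, and the stretch was chosen from the contrast itself. Log2 ratios of -1 or lower and 0.5 or higher were counted, beside the same count over all autosomal probes, genes or runs. A gene mean is the mean over its probes. Genes were named by a rule that took the Cyp2a and Cyp2b genes, the other named genes of the window, 4 further Cyp2 genes, 6 regulators and the 5 genes with the smallest root mean square difference. The members, lists and thresholds were chosen with earlier results of these data known. Alternatives covered normexp background correction (limma 3.58.1 in R 4.3.3, offset 50), the deposited ratio, flagged spots, centring, the probe summary, probe choice, each tumour left out and the slide. Python 3.11.15 with numpy 2.4.6 and pandas 2.3.3 was used, and the summaries were tested on simulated data. The number of arrays limits the precision.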

Additional observations from a re-analysis of the deposited data

How the results depend on the processing

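Of 153 values computed under alternatives, 146 moved by no more than the spread used for them, 7 moved further and 0 of the values past -1 or 0.5 changed sign. That spread was the SE over probes for a value of 1 tumour and the SD over tumours for their mean, and a count was held to a factor of 1.5. The stretch mean ranged from -2.74 to -2.22 in tumour 1, from 0.039 to 0.32 in tumour 2, from 0.018 to 0.073 in tumour 3 and from 0.79 to 0.96 in tumour 4 over 9 alternatives each. Under normexp background correction tumour 4 read 0.96 in the stretch and 0.92 relative to its flanks, and the Cyp2a and Cyp2b probes outside the stretch averaged 0.021 in tumour 1, -0.12 in tumour 2 and -0.023 in tumour 4, against 0.0038, 0.05 and 0.098 without it, so their sign turned in tumours 2 and 4. The stretch probes at 0.5 or higher in tumour 4 then numbered 9 in place of 11. Centred on chromosome 7, the Cyp2a and Cyp2b probes outside the stretch averaged 0.065 in tumour 1. Of 2 probe choices added after seeing the data, leaving out the 3 probes with a base run of 10 or more gave 0.32 in tumour 2, and keeping the 4 probes named Cyp2b13 or Cyp2b9 gave 0.95 in tumour 4. The cause of these moves was not tested. Leaving out 1 tumour moved the mean over tumours to between -0.75 and 0.34, above 0 without tumour 1 alone. The mean within slides was -1.15 for tumours 1 and 2 and 0.44 for tumours 3 and 4. No paired analysis was possible because the labels give 1 group of tumours. All values of the stretch lay well above background, but the 2 lowest ratios of tumour 1 rest on dim tumour channels. The processed signals of array 1 were 135 against 1922 in the reference channel at chr7:26797991-26798043, and 112 against 1579 at chr7:26874031-26874090. Whether residual signal limits the depth of such ratios was not tested. The noise of the array of tumour 2 limits its values.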

Other observations

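Opposite ratios in tumours 1 and 4 were also read at genes other than Cyp2b13 and Cyp2b9. Of 13389 autosomal genes with at least 2 probes, 18 read -0.5 or lower in tumour 1 and 14 read 0.5 or higher in tumour 4, and 8 did both. Besides Cyp2b13 and Cyp2b9 these were Entpd4, Loxl2, BC030357, Yars, AK136073 and AK139864. These 8 genes are not 8 separate places. Cyp2b13 and Cyp2b9 share the stretch, and the probes of Entpd4 (chr14:69960159-69984257) lie close to those of Loxl2 (chr14:70010476-70070594). The reverse, 0.5 or higher in tumour 1 with -0.5 or lower in tumour 4, was read at 3 genes. The threshold of 0.5 in both directions was chosen after the values were seen.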
